A study of Homo sapiens with 18 samples.

Results

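Among the 18 libraries of the series, 12 were compared here: the 6 whose titles give them the replicate number 1 and the 6 numbered 3. The pairs were matched by treatment, so that each of the 6 treatments supplied 1 library of each number, and the choice of libraries used no measured value. The question was which genes differed with the replicate number in the same direction within every treatment. All 12 libraries came from U87, an unmodified line of human glioblastoma cells whose labels describe it as glial cells, and all RNA was taken 24 h after a single dose. The treatments were ethanol, the vehicle (0 nM rexinoid), and 5 rexinoids at 100 nM: bexarotene, which is used clinically as an RXR agonist, and the compounds coded A34, A41, A80 and A98. The labels give no culture, passage, day or batch for a replicate number, so a difference between numbers 1 and 3 is described as a difference between 2 sets of libraries. They also do not say that replicates were separate cultures, so each p-value reflects only library-to-library spread, part of which may be technical.

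Cells sense oxygen through the hypoxia-inducible factors (HIF), transcription factors whose alpha subunits are hydroxylated by the EGLN enzymes when oxygen is present, bound by VHL and degraded. When they are stable they raise genes for glucose uptake, glycolysis, pH control, blood vessel growth and mitophagy, a program well known in glioblastoma. Several of the same genes also answer to nutrient supply and to amino acid stress through the factor ATF4. Rexinoids act through RXR, the retinoid X receptors, which bind DNA in pairs with RAR, the receptors for retinoic acid, or with other nuclear receptors.

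Levels are TPM, a transcript abundance corrected for gene length and library total, divided by a scaling factor for each library, called scaled TPM. A difference is log2(scaled TPM + 1) of replicate 1 minus that of replicate 3, so a positive value is higher in replicate 1. Depth was 1.31 to 3.20 gigabases of aligned sequence in the replicate 1 libraries and 1.82 to 3.89 in those of replicate 3, and 4 of the 6 replicate 1 libraries were the shallower of their pair. Ribosomal RNA took 44.9% of TPM in bexarotene replicate 1 and 0.352% to 4.36% in the other 11. Between 15710 and 16358 genes reached 1 scaled TPM in replicate 1, against 15479 to 15889 in replicate 3, with the higher count in replicate 1 in 6 of 6 pairs (mean difference 341, exact two-sided exchange test p = 0.0312, the smallest its 64 arrangements allow, and 0.281 after Benjamini-Hochberg adjustment over 9 library measures). The other 8 measures had exact p from 0.156 to 0.719. The direction of the gene count depended on scaling. Counted at 1 TPM as deposited, replicate 1 had more genes in ethanol, A34 and A80. It had fewer in bexarotene (14148 against 16392), A41 (16174 against 16248) and A98 (16174 against 16222). Of 9 leukocyte and microglial markers, AIF1, CX3CR1, P2RY12 and CD3E lay under 0.1 scaled TPM in all 12 libraries, and the list summed to 156.5 to 203 in replicate 1 and 148 to 209.8 in replicate 3. The 7 endothelial markers summed to 4.26 to 5.88 and 3.84 to 5.04, and the 10 astroglial markers to 306 to 347 and 265 to 313. Summed markers of mesenchymal glioma (VIM, CD44 and 8 others) lay at 14870 to 17240 in replicate 1 and 13340 to 14830 in replicate 3, without overlap. The part of depth, RNA makeup and these markers in the results was not tested.

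The genes that rose in replicate 1 included HIF targets such as CA9, the cytokine gene IL11 and the collagen VI genes COL6A1 and COL6A2. By limma with treatment as a block, 36 of 18269 genes rose in replicate 1 (0.197%) and 5 fell (0.0274%), 41 in all (0.224%), at an adjusted p under 0.05. All 41 differed in the same direction in 6 of 6 pairs, whereas 834 of all genes tested were higher in replicate 1 in every pair (4.57%) and 674 were lower in every pair (3.69%). For 91 genes (0.498%) each of the 6 replicate 1 libraries lay above each of the 6 of replicate 3, for 64 genes (0.35%) each lay below, and 19 of the 41 were among them. The calls sat close to the threshold: apart from the pseudogene LDHAP4 (0.0117) their adjusted p lay between 0.0461 and 0.0476, and 26 further genes had one from 0.05 to 0.06. On TPM as deposited 48 genes were higher and 36 lower, 14 of the 41 among them, with the median of all genes at -0.155 in place of -0.0041. Without ribosomal and mitochondrial RNA 2 were higher and 1 lower. Leaving out the ethanol pair gave 57 genes higher and 3 lower, 27 of the 41 among them, whereas leaving out any other pair left at most 3 higher and 1 lower (0 and 0 without A80). The 41 kept their direction in every alternative fitted, which their 1 sign in 6 of 6 pairs fixed in advance for the fits that leave out pairs. Their median adjusted p lay between 0.0915 and 0.183 without bexarotene, A34, A41, A80 or A98. In bulk RNA a change in every cell cannot be told apart from a change in the share of cells that carry it.

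**Figure D1:**
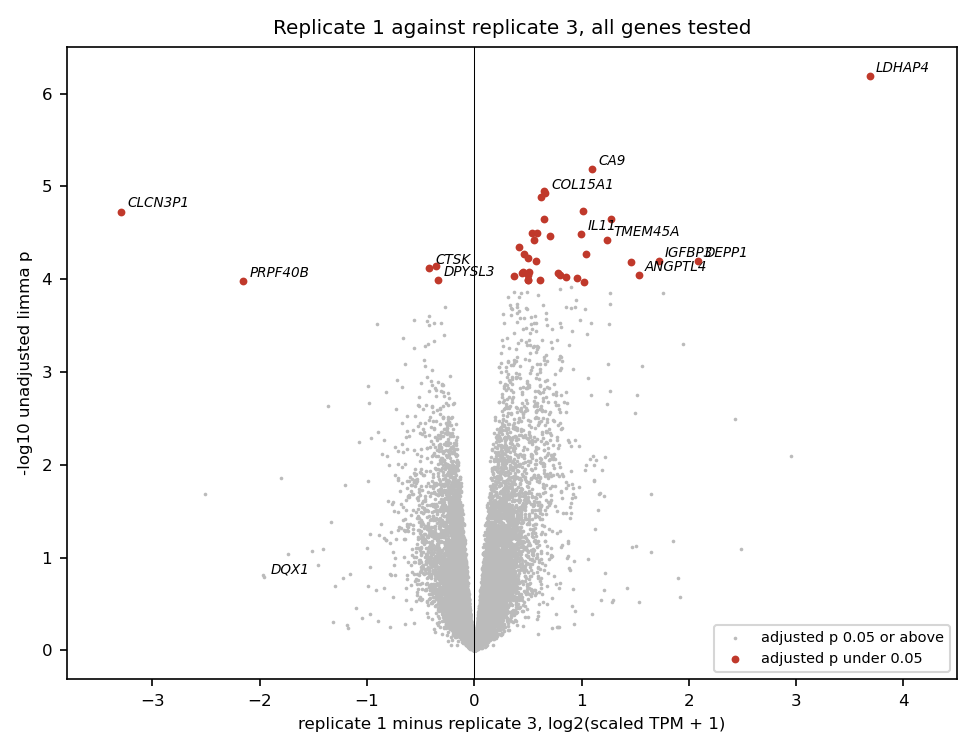
Each point is 1 of the 18269 genes tested, with the difference of replicate 1 minus replicate 3 on the x axis (log2 scale) and the unadjusted limma p on a −log10 scale on the y axis. The 41 genes with an adjusted p under 0.05 are red. Of these, 36 lie to the right (higher in replicate 1) and 5 to the left, and the farthest from 0 are the pseudogenes LDHAP4 (3.69) and CLCN3P1 (-3.29).

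CA9, a membrane carbonic anhydrase with a part in pH control, was among the HIF targets that rose. In replicate 1 it stood at 64.7 scaled TPM in ethanol, 117 in bexarotene, 209.9 in A34, 121 in A41, 193 in A80 and 104 in A98. In replicate 3 the same treatments gave 30.6, 61.7, 81.2, 41.6, 86.9 and 69.2. Replicate 1 was the higher of each pair, although its ethanol library lay below the highest libraries of replicate 3. CA9 rose by 1.10 on the log2 scale (SE 0.11, 95% interval 0.84 to 1.35, adjusted p = 0.0461), and the smallest pair difference was the 0.58 of A98. Its gene (ENSG00000107159) occupies bases 35673918 to 35681159 of the plus strand of chromosome 9 on GRCh38, and the gene ARHGEF39 on the other strand overlaps it.

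The HIF target list held 32 genes, of which 30 passed the filter on low levels, all but RIMKLA and KISS1R. Of these 30, 5 rose and 0 fell at the threshold over all genes, 26 were higher in replicate 1 in 6 of 6 pairs, and 0 were lower in all pairs. Among all genes tested, 0.197% rose and 4.57% were higher in 6 of 6 pairs. The median difference of the 30 was 0.62 (0.45 on TPM as deposited, 0.38 without the A34 and A80 pairs), against -0.0041 for all genes tested. Members of this and the other lists were chosen with earlier results of these data known, so setting a list against all genes is not a test. The list median was positive in each pair, at 0.28 in ethanol, 0.33 in bexarotene, 1.06 in A34, 0.80 in A41, 0.97 in A80 and 0.41 in A98. Of the 30, 1 had its 6 libraries of replicate 1 all above those of replicate 3, against 0.498% of all genes. The replicate number took a median of 41.9% of a HIF target's sum of squares over the 12 libraries, and treatment 41%. Over all genes tested the number took a median of 7.19% and treatment 45.9%, so the treatment share of HIF targets was below that of all genes. Treatment has 5 coefficients in the fit and the number 1, so their shares are not on one scale.

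TMEM45A, BNIP3 and STC2 were among the further calls of the list. TMEM45A, a transmembrane protein gene known as hypoxia-inducible, ranged from 12.5 (median 26.1) to 48.4 in replicate 1 and from 7.62 (median 10.9) to 15.1 in replicate 3, a difference of 1.23 (SE 0.16, adjusted p = 0.0461). BNIP3, a mitochondrial receptor for autophagy, ranged from 109.6 to 306 (median 180.5) and from 72.5 to 136 (median 113.9), a difference of 0.86 (SE 0.12, adjusted p = 0.0476, or 0.252 on TPM as deposited). For TMEM45A and BNIP3 the ethanol library of replicate 1 lay below the top of replicate 3. STC2, a secreted glycoprotein gene, differed by 0.37 (SE 0.05, adjusted p = 0.0476), from 54.3 to 92.2 in replicate 1 and from 44.9 to 64.98 in replicate 3. On TPM as deposited the STC2 difference was 0.18 (adjusted p = 0.765).

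Other HIF targets did not pass the threshold. VEGFA, the vessel growth factor, lay at 356, 556, 731, 518, 762 and 510.4 in replicate 1 (ethanol, bexarotene, A34, A41, A80, A98) and at 321, 383, 442, 397, 488 and 371 in replicate 3. Each replicate 1 library exceeded its partner (difference 0.48, SE 0.08, adjusted p = 0.0582). NDRG1, a stress-responsive gene, had pair differences from 0.35 in ethanol to 2.10 in A34, with a mean of 1.27 (SE 0.20, adjusted p = 0.0582). EGLN3, the oxygen-sensing hydroxylase that HIF itself induces, went from 2.19 in replicate 3 to 22 in replicate 1 under A34 and from 0.995 to 1.16 in ethanol (95% interval of the mean difference 0.68 to 2.32, adjusted p = 0.147). ADM, the peptide hormone adrenomedullin, differed by 0.79 (SE 0.16, adjusted p = 0.1), and PDK1, which restrains entry of pyruvate into mitochondria, by 0.42 (SE 0.12, adjusted p = 0.204) with 5 of 6 pairs higher.

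Among the genes that encode and control HIF itself, 9 of 10 were tested, 0 passed the threshold (2 with an unadjusted limma p under 0.05) and the median difference was 0.04, or -0.15 on TPM as deposited. HIF1A ranged from 273 to 301 in replicate 1 and from 266 to 296 in replicate 3 (difference 0.04, 95% interval -0.07 to 0.14, adjusted p = 0.82). EPAS1, the HIF-2 alpha gene, was higher in 6 of 6 pairs by 0.25 (SE 0.06, adjusted p = 0.17) and was named after its value was seen. These are RNA levels, and the HIF proteins were not measured.

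**Figure D2:**
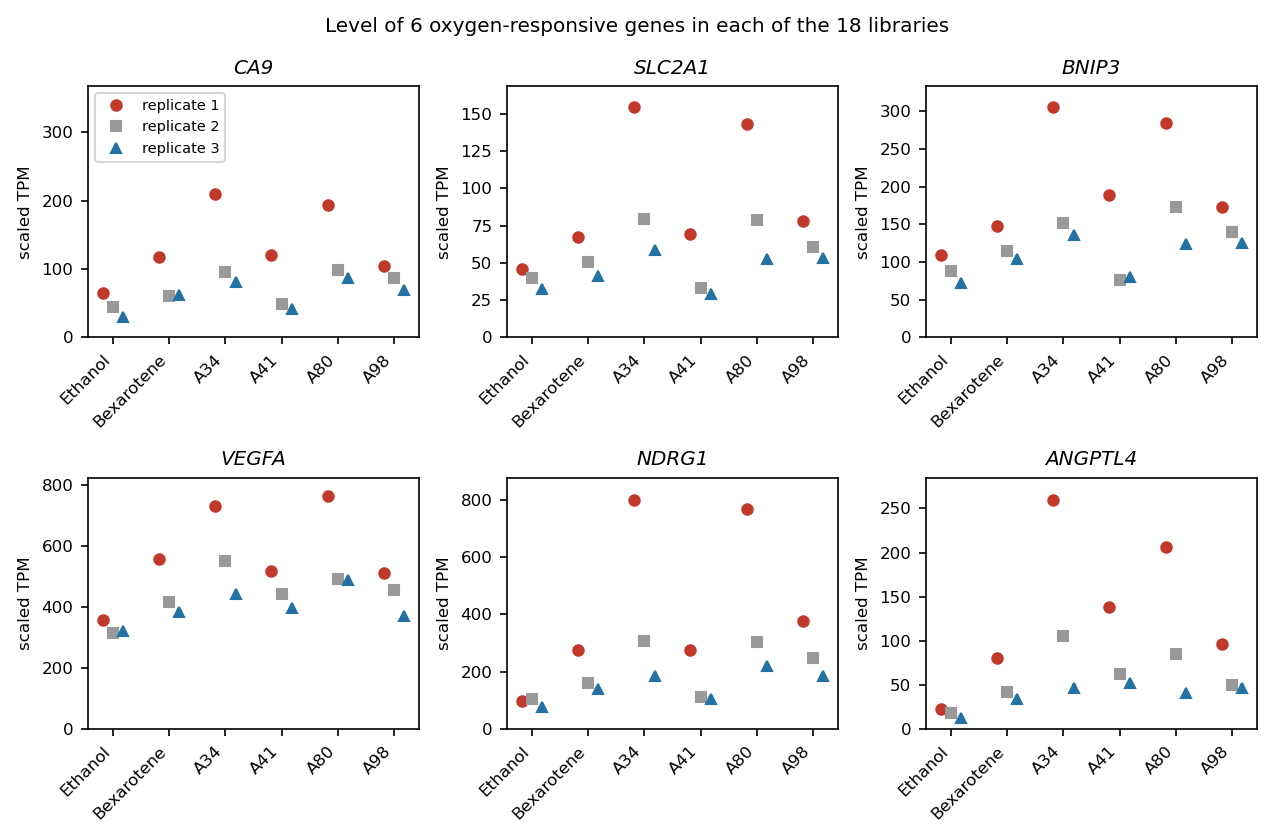
Scaled TPM (y axis) of 6 genes in each treatment (x axis), with 1 point per library: replicate 1 as red circles, replicate 2 as grey squares and replicate 3 as blue triangles. Replicate 1 lies above replicate 3 in all 6 treatments for each gene, with the widest gaps in scaled TPM in A34 and A80, as for NDRG1 at 800.1 against 186 in A34. On the log2 scale the widest gap of CA9 (1.52) and of BNIP3 (1.23) is in A41.

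The HIF complex binds DNA at a short core, of which the letters ACGTG and GCGTG are the usual forms. The sequences from 250 bases upstream to the start site, 5′ to 3′ on the gene's strand, are shown for the called HIF targets and ATF4-list genes of largest difference, from RefSeq on GRCh38.p14. Capitals mark the hypoxia cores ACGTG and GCGTG and the ATF4 element TGATGNAA found on either strand. A match on the minus strand appears as the reverse complement. The windows are chr3:100492369-100492618 for TMEM45A (plus), chr9:35673678-35673927 for CA9 (plus), chr10:72273674-72273923 for DDIT4 (plus) and chr5:173328415-173328664 for STC2 (minus).
CA9: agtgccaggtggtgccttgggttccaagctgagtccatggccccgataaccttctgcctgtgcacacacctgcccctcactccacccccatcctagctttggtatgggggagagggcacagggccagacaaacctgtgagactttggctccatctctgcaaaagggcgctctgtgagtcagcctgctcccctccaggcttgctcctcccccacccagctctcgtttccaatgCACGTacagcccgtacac
TMEM45A: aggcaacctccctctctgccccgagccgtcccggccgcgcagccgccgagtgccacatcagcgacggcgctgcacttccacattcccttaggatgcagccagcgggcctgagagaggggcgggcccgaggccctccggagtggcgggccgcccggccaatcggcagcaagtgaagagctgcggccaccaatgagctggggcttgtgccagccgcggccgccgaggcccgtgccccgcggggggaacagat
DDIT4: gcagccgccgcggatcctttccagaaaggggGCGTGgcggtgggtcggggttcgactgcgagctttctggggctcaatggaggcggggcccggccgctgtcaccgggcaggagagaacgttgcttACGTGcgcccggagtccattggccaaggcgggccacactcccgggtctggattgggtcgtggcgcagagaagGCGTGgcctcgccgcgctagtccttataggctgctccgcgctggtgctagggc
STC2: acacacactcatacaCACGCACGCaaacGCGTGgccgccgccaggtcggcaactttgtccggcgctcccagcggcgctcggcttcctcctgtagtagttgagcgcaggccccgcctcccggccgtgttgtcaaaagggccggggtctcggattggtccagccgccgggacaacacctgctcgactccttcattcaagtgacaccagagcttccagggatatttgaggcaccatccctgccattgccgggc
The CA9 window held 1 ACGTG on the minus strand, whose first base in the window lies 18 bases upstream of the start site. DDIT4 held 1 ACGTG and 2 GCGTG, and STC2 held 3 GCGTG near the window's upstream end, of which neighbouring matches overlap. TMEM45A held 0 of either core, which says only that these letters are not in this window. None of the 4 windows held TGATGNAA. Over the 25 HIF targets with an entry in the table, 64% held ACGTG and 80% held either core, against 23.7% and 57.2% of the 10495 windows of genes tested. Of the 21 windows of genes that rose in replicate 1, 38.1% held ACGTG, 38.1% held GCGTG (45.1% of genes tested) and 57.1% held either core. Of the 26 ATF4-list windows, 11.5% held TGATGNAA, against 1.56%. A match is a description of the sequence, and no binding was measured.

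Genes of glucose handling lay mostly higher in replicate 1. All 25 genes of the glycolysis and glycogen list were tested, 1 rose and 0 fell, and 20 were higher in replicate 1 in 6 of 6 pairs (0 lower in all pairs), with a median difference of 0.31 (0.13 on TPM as deposited). The shares over all genes tested were 0.197% that rose and 4.57% higher in 6 of 6 pairs. SLC2A1, the glucose transporter GLUT1, stood at 45.8, 67.0, 154, 69.3, 143 and 78.4 in replicate 1 (ethanol, bexarotene, A34, A41, A80, A98). The replicate 3 libraries gave 32.2, 41, 58.95, 29.4, 52.3 and 53.05. The A34 and A80 libraries of replicate 1 were the highest of the 12 (difference 0.96, SE 0.14, 95% interval 0.64 to 1.28, adjusted p = 0.0476, or 0.0853 on TPM as deposited). Among members named after their values were seen, the aldolase ALDOC differed by 0.80 (SE 0.12, adjusted p = 0.0538), the glycogen synthase GYS1 by 0.49 (SE 0.07, adjusted p = 0.0538), the regulators PFKFB4 by 0.67 and PFKFB3 by 0.58 (adjusted p = 0.0612 each) and hexokinase HK2 by 0.57 (adjusted p = 0.14). LDHA, lactate dehydrogenase, ranged from 2333 to 4131 in replicate 1 and from 2075 to 2982 in replicate 3 and did not pass (difference 0.35, SE 0.09, adjusted p = 0.186). HK1 at 0.04, PFKM at -0.02 and PKM at 0.13, a hexokinase, a phosphofructokinase and pyruvate kinase, were the smallest differences in the list.

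ANGPTL4, DEPP1 and IGFBP3 had the largest differences of the called protein-coding genes that rose. DEPP1, a gene induced by FOXO factors and progestin, read 4.09, 42.7, 131, 35.3, 142 and 40.9 in replicate 1 (ethanol, bexarotene, A34, A41, A80, A98), against 2.2, 8.09, 12.6, 11.2, 21.6 and 9.02 in replicate 3. The ethanol pair was the smallest on both sides (difference 2.09, SE 0.29, 95% interval 1.43 to 2.74, adjusted p = 0.0476). IGFBP3, which binds insulin-like growth factors outside the cell, ranged from 60.9 (median 216) to 583 and from 29.96 (median 83.9) to 123, with pair differences from 0.79 in A98 to 2.46 in A41 (mean 1.72, SE 0.24, adjusted p = 0.0476). ANGPTL4, an inhibitor of lipoprotein lipase that both PPAR receptors and HIF are known to induce, ranged from 22.7 (median 117) to 259 and from 12.9 (median 43.5) to 52.2 (difference 1.53, SE 0.22, adjusted p = 0.0476). DEPP1 overlaps RASSF4 on the other strand, which differed by 0.80 (adjusted p = 0.146). In the PPAR target list that holds it, the remaining 9 tested members included 0 calls, and the list median was -0.07.

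Genes of the ATF4 and amino acid response lay higher in replicate 1 as a list, by less than the HIF targets. All 34 were tested, 2 rose and 0 fell, 13 were higher in 6 of 6 pairs and 0 lower, and the median difference was 0.26 (0.0912 on TPM as deposited). Beside these counts, 0.197% of all genes tested rose and 4.57% were higher in 6 of 6 pairs. DDIT4, an inhibitor of mTORC1 that stress and hypoxia induce, ranged from 69.01 (median 184) to 303 in replicate 1 and from 61.96 (median 102) to 145 in replicate 3 (difference 0.78, SE 0.11, adjusted p = 0.0476, or 0.342 on TPM as deposited). Its 5 rexinoid pairs differed by 0.75 to 1.06 and its ethanol pair by 0.15. The second call was STC2, given above, which both lists hold. ATF4 RNA itself was higher in 5 of 6 pairs (0.28, SE 0.08, adjusted p = 0.189), lower in the ethanol pair, at 109 against 118.5. Its targets ASNS at 0.31 (adjusted p = 0.194), CHAC1 at 0.57 (0.144), TRIB3 at 0.38 (0.178) and DDIT3 at 0.25 (0.144) did not pass. The chaperone HSPA5, a marker of the unfolded protein response in the endoplasmic reticulum, differed by 0.05 (95% interval -0.08 to 0.18, adjusted p = 0.762), and the 21 genes of that list had a median of 0.02 (-0.16 on TPM as deposited) with 0 calls by limma and 3 unadjusted p under 0.05.

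Of 24 inflammatory and NF-kB genes tested, 1 rose and 0 fell, 8 were higher in all 6 pairs and 1 (TNFAIP2) was lower in all, and the median difference was 0.42 (0.26 on TPM as deposited, 0.27 without the A34 and A80 pairs). Among all genes tested, 0.197% rose, 4.57% were higher in all 6 pairs and 3.69% lower. By pair, the inflammatory list median was 0.03 in ethanol and 0.33 (bexarotene) to 0.61 (A34) in the rexinoids. IL11, a cytokine of the IL6 family, stood at 123, 75.03, 57.02, 45.5, 61.6 and 47.9 in replicate 1 (ethanol, bexarotene, A34, A41, A80, A98) and at 39.1, 31.7, 31.6, 22.4, 37.5 and 30.9 in replicate 3. The sets did not overlap, and unlike the HIF targets it was highest, with the widest gap (1.63), in ethanol (difference 1.00, SE 0.13, adjusted p = 0.0461). IL6 ranged from 26.8 to 84.7 and from 13.6 to 21.2 without overlap, and missed the threshold (1.27, SE 0.19, adjusted p = 0.0538). CXCL8, a neutrophil chemokine, ranged from 137 to 281 and from 88.7 to 134, also without overlap (0.90, SE 0.13, adjusted p = 0.0528). Outside that list, the complement component C3 rose by 0.65 (SE 0.08, adjusted p = 0.0461, or 0.658 on TPM as deposited), at 98.9 to 146 against 73.3 to 83.9. The protease inhibitor PI3 (elafin) rose by 1.46, the bradykinin receptor BDKRB1 by 1.02, the NF-kB regulator TNIP1 by 0.42 and the small MAF factor MAFF by 0.54. On TPM as deposited TNIP1 and MAFF each had an adjusted p of 0.76, while PI3 (4.57e-05) and BDKRB1 (0.0316) passed. Tissue factor (F3), the starter of coagulation, was named after its value was seen, at 36.9 to 325 against 26.7 to 51.1 (1.76, SE 0.27, adjusted p = 0.0538).

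Of 27 extracellular matrix genes tested, 3 rose and 0 fell, 13 were higher in all 6 pairs and 1 lower, with a median of 0.17, which was 0.0028 on TPM as deposited and 0.04 without the A34 and A80 pairs (0.55 in the A34 pair). The shares over all genes tested were 0.197% that rose, 4.57% higher in all 6 pairs and 3.69% lower. The collagen VI chains COL6A1 and COL6A2 lie on chromosome 21 and rose together, by 0.50 (SE 0.07) and 0.45 (SE 0.06), both at an adjusted p of 0.0476 (0.76 on TPM as deposited). COL6A2 ranged from 255 to 348 in replicate 1 and from 201 to 254 in replicate 3 without overlap. The third chain, COL6A3, was higher in 4 of 6 pairs (0.19, adjusted p = 0.516). MMP3, the matrix protease stromelysin-1, ranged from 205 to 302 and from 162 to 187 (0.55, SE 0.07, adjusted p = 0.0461, or 0.76 on TPM as deposited), while MMP1 differed by 0.00 (adjusted p = 0.995). Outside the list, the basement membrane collagen COL15A1 rose by 0.66 (SE 0.07) and the secreted protease HTRA1 by 0.44 (SE 0.06). On TPM as deposited their adjusted p was 0.613 and 0.76.

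Apart from PRPF40B, the protein-coding genes that fell were CTSK, DPYSL3 and ECSIT. CTSK, the collagen-degrading cathepsin K, lay at 32.7 to 43.9 in replicate 1 and 42.4 to 54.8 in replicate 3 (-0.42, SE 0.06, adjusted p = 0.0476). DPYSL3, a cytoskeletal regulator of growing neurites, lay at 38.8 to 42.5 and 49.4 to 56.3 (-0.34, SE 0.05, adjusted p = 0.0476). ECSIT, a factor for assembly of mitochondrial complex I, lay at 24.7 to 28.3 and 31.4 to 37.7 (-0.36, SE 0.05, adjusted p = 0.0476). The sets of DPYSL3 and ECSIT did not overlap, and the pair differences of each stayed within -0.49 to -0.23. On TPM as deposited the adjusted p was 0.323 for CTSK, 0.517 for DPYSL3 and 0.46 for ECSIT.

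Of 32 S phase genes 28 were lower in replicate 1, 10 of them in all 6 pairs and 0 higher in all, with a median of -0.12. MCM2, a subunit of the replicative helicase, was lower in 6 of 6 pairs (-0.20, SE 0.06, adjusted p = 0.227). All 18 heat shock genes had a negative difference (median -0.14, 5 lower in all pairs), as had 60 of 62 replication-dependent histones tested (median -0.15, 12 lower in all pairs) and 23 of 24 nucleolar genes (median -0.09). These list counts stand beside 3.69% of all genes lower in 6 of 6 pairs, and at the limma threshold over all genes each of these 4 lists had 0 calls in either direction, with an unadjusted p under 0.05 and a negative difference for 12 S phase, 8 heat shock, 24 histone and 5 nucleolar genes. On TPM as deposited, where the median of all genes is -0.155, the medians of these lists were -0.30 (S phase), -0.32 (heat shock), -0.34 (histones) and -0.27 (nucleolar), and without the A34 and A80 pairs they were -0.07, -0.10, -0.11 and -0.03. The 10 tested G1 cyclins and inhibitors had a median of 0.01. Of 30 G2 and mitosis genes 24 were lower in replicate 1, 6 of them in all 6 pairs and 0 higher in all. Their median was -0.08 (-0.10 without the A34 and A80 pairs, -0.26 on TPM as deposited). By limma 0 were called, and 8 had a negative difference with an unadjusted p under 0.05. MKI67 differed by -0.05 (adjusted p = 0.838) and CCNB1 by -0.12 (0.421). The 83 ribosomal protein genes, 100 nuclear-encoded genes of oxidative phosphorylation and 24 genes of cholesterol synthesis had medians of -0.01, -0.03 and -0.07 and 0 calls by limma, with unadjusted p under 0.05 for 3, 6 and 4 genes. The 13 mitochondrially encoded genes had a median of 0.29, 0.0021 without the A34 and A80 pairs, with 1.40 in the A80 pair and -0.11 to 0.31 in the other pairs. Mitochondrial mRNA made up 3.09% of TPM without ribosomal RNA in A80 replicate 3 and 5.08% to 7.46% in the other 11 libraries.

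**Figure D3:**
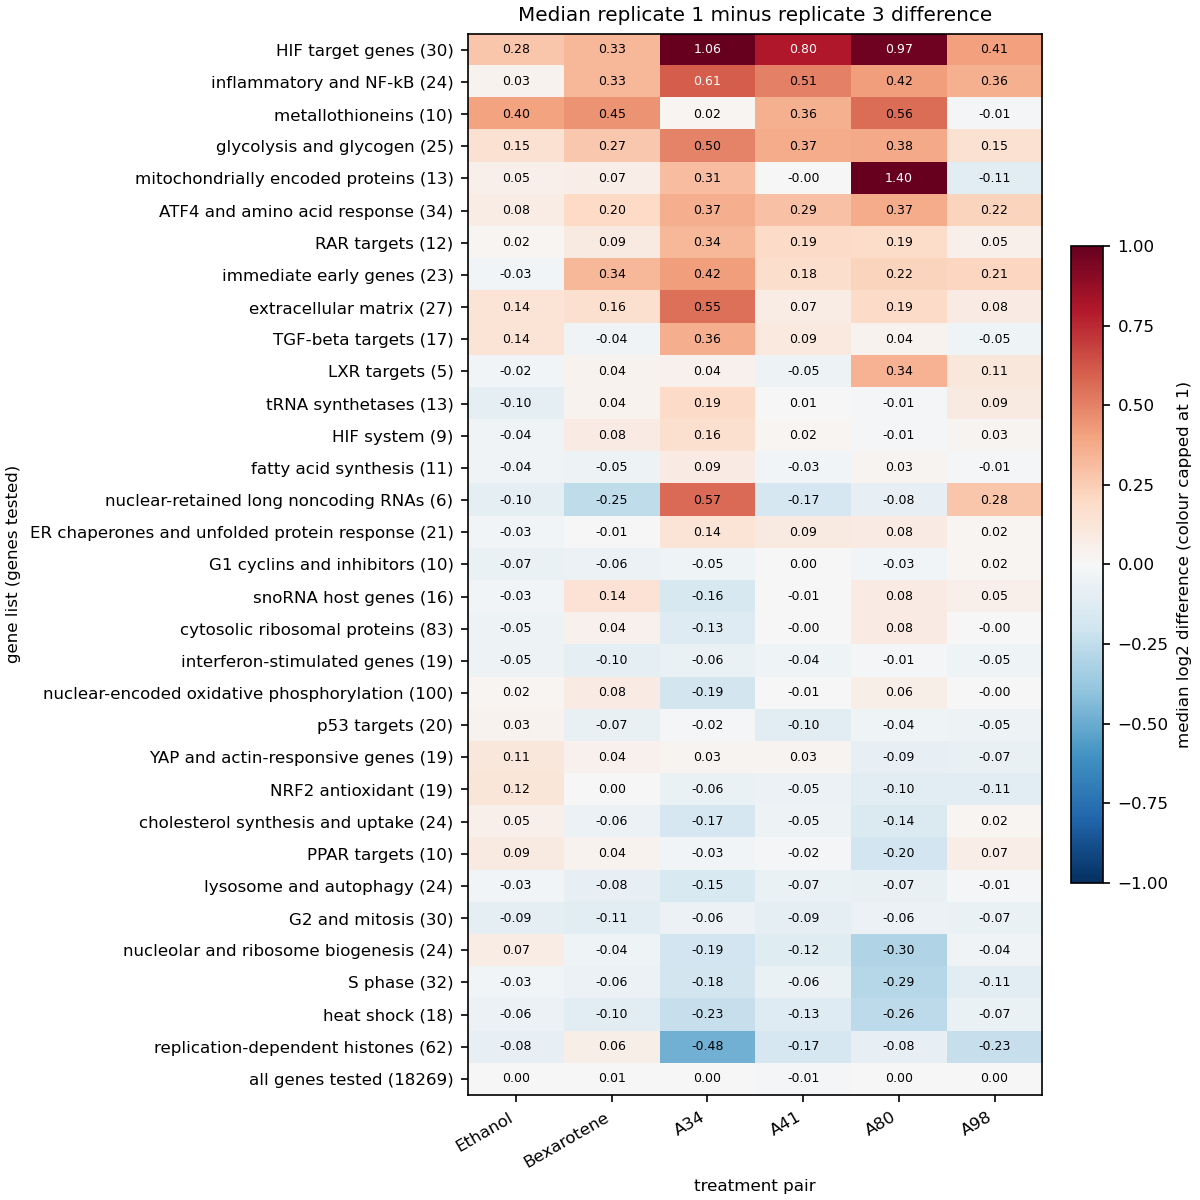
Colour and number give the median difference of replicate 1 minus replicate 3 (log2 scale) over the tested genes of each list (y axis, number of genes in brackets) in each treatment pair (x axis). HIF targets are positive in every column, from 0.28 in ethanol to 1.06 in A34, and all genes tested lie within -0.01 to 0.01.

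The gap between the numbers was smaller with ethanol than with the rexinoids for most called genes. The test of that difference passed only for DQX1, a gene outside the calls. Of the 36 genes that rose, 33 had a smaller difference in the ethanol pair than in the mean of the 5 rexinoid pairs. The median difference of the 36 was 0.45 in ethanol, 0.71 in bexarotene, 0.83 in A34, 0.67 in A41, 0.85 in A80 and 0.53 in A98. A gap shared by the 5 rexinoid pairs weighs more than an ethanol gap in the mean by which these genes were called. All 36 also share the 1 ethanol pair, and the same count over all genes is not given, so the count is not a test. The interaction, fitted with limma on 18268 genes, passed for DQX1 (0.00547% of genes), and 569 genes had an unadjusted p under 0.05. DQX1 went the other way, with the wider gap in ethanol (-10.287, against -0.292 over the rexinoid pairs). For DDIT4 the rexinoid pairs exceeded the ethanol pair by 0.75 (unadjusted p = 0.0019, adjusted p = 1). Only 1 ethanol pair exists, so its spread is assumed to be that of the rexinoid pairs.

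The ratio of a rexinoid to the ethanol library of the same number is given here as a description, since all 5 ratios of a number share 1 ethanol library. In the ethanol library of replicate 2 ribosomal RNA took 35.5% of TPM, against 0.352% in that of replicate 1 and 4.36% in that of replicate 3. ANGPTL4 under A34 was 11.4 times the ethanol library in replicate 1, 5.98 times in replicate 2 and 3.62 times in replicate 3. DEPP1 under A80 was 34.8, 5.73 and 9.81 times ethanol in replicates 1, 2 and 3, and NDRG1 under A34 was 8.25, 2.93 and 2.45 times. IGFBP3 under A41 was 3.72 times ethanol in replicate 1, 0.533 times in replicate 2, where ribosomal RNA took 56.1% of TPM in the A41 library, and 1.35 times in replicate 3. Over the 30 HIF targets the median rexinoid minus ethanol difference was 0.80 in replicate 1, 0.33 in replicate 2 and 0.41 in replicate 3, each against its own ethanol library.

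The treatments were also compared within the same libraries. The F test over the 6 treatments in these 12 libraries, limma with the replicate number as the other term, passed for 9 genes (0.0493%). Of 12 RAR targets tested, 6 were higher in replicate 1 in 6 of 6 pairs and 2 lower, with a median of 0.22 (0.06 on TPM as deposited) and 0 calls by limma (9 with an unadjusted p under 0.05). Among all genes tested, 4.57% were higher in 6 of 6 pairs and 3.69% lower. CYP26B1, which degrades retinoic acid, was 13.9 times ethanol under A41 in replicate 1 and 13.1 times in replicate 3 (18.1 in replicate 2). DHRS3, a retinaldehyde reductase, was 5.32 and 4.29 times ethanol under A41, and the secretory kinase FAM20C 3.67 and 3.56 times. Their differences between the numbers were 0.37 for CYP26B1 (SE 0.10, adjusted p = 0.194), -0.04 for DHRS3 (adjusted p = 0.879) and 0.12 for FAM20C (adjusted p = 0.554). The lipid desaturase SCD and the sterol exporter ABCA1 differed by 0.29 (adjusted p = 0.264) and 0.15 (0.559).

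**Figure D4:**
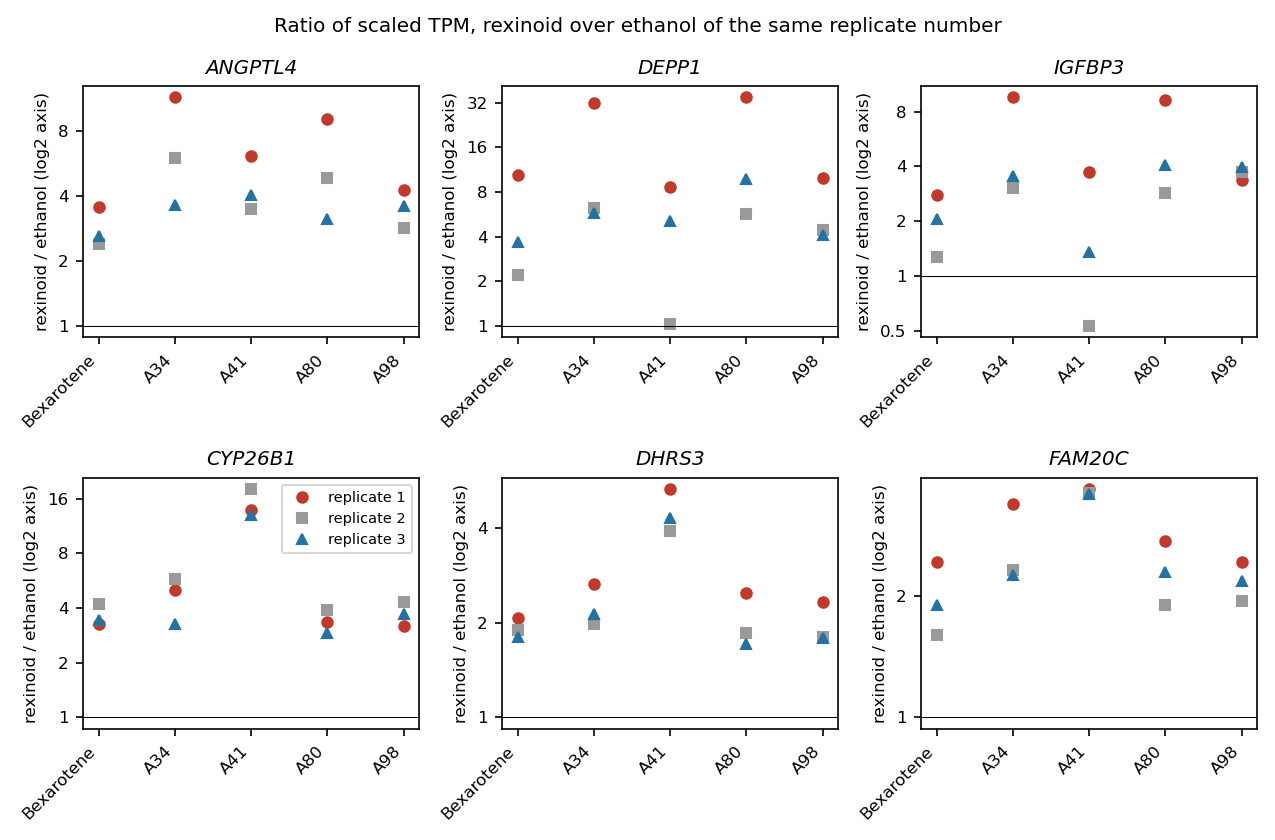
Ratio of scaled TPM in each rexinoid (x axis) to the ethanol library of the same number (y axis, log2 scale), with 1 point per library and the numbers coloured as in the plot of oxygen-responsive genes. In the upper row ANGPTL4, DEPP1 and IGFBP3 spread by number, for example 11.4 to 3.62 for ANGPTL4 under A34, and in the lower row the 3 points of CYP26B1, DHRS3 and FAM20C are at 13.9, 18.1 and 13.1 for CYP26B1 under A41.

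Replicate 2, whose 6 libraries the contrast did not use, lay between the other sets for the called genes and for most HIF targets. Its mean log2 level was between those of replicates 1 and 3 for 41 of the 41 called genes, nearer to replicate 3 for 30 of them. Of all 8911 genes with a higher mean in replicate 1, 3723 had it in between. The called genes were chosen for a wide gap between replicates 1 and 3, which leaves more room between them, so the count of 41 is not a test. Over the HIF targets, replicate 2 exceeded replicate 3 by a median of 0.17 and fell short of replicate 1 by 0.45, with 29 of 30 in between. For CA9 its libraries read 43.9, 61.03, 95.5, 49.03, 97.9 and 87.4 in the order used above. In the cytokine list the medians were 0.24 above replicate 3 and 0.11 below replicate 1.

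The largest differences of the comparison belonged to gene models that had a low and a high level with no library between. LDHAP4, a processed pseudogene of the lactate dehydrogenase gene LDHA, stood at 65.7 to 117 in replicate 1 and 2.67 to 16.2 in replicate 3 (difference 3.69, SE 0.28, 95% interval 3.05 to 4.33, adjusted p = 0.0117). CLCN3P1, a pseudogene of the chloride transporter gene CLCN3, stood at 0.0964 to 4.89 and 21.2 to 36.3 (-3.29, SE 0.38, adjusted p = 0.0461). LDHAP4 (bases 14921337 to 14922334 of chromosome 9 on GRCh38) lies inside CLCN3P1 (bases 14921013 to 15146401), on the same minus strand. In replicate 2 the ethanol and bexarotene libraries gave LDHAP4 at 80.5 and 73.3 with CLCN3P1 at 2.78 and 0.571, and the other 4 gave LDHAP4 at 3.17 to 18.1 with CLCN3P1 at 27.1 to 36.5. Each of the 18 libraries thus had one of the pair high and the other low. The models overlap and resemble expressed parent genes, so how the authors' software split reads between them is uncertain. LDHA was 0.35 higher in replicate 1, and CLCN3 differed by 0.10 (adjusted p = 0.583).

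PRPF40B, which encodes a splicing factor, also had a low and a high level. It read 4.53 to 6.03 in replicate 1 and 31.6 to 41.6 in 5 replicate 3 libraries, while A41 replicate 3 read 7.05. Within replicate 2 the A41 library was the high one, at 28.2, and the other 5 read 5.21 to 7.56. The mean difference was -2.15 (SE 0.32, adjusted p = 0.0476), and that of the A41 pair was -0.20. Its span overlaps other gene models on both strands. BNIP3P1 and NAMPTP1, processed pseudogenes of BNIP3 and NAMPT, rose with their parents by 1.01 and 0.50, beside 0.86 for BNIP3 and 0.52 for NAMPT (adjusted p = 0.0684). Reads shared with the parents cannot be told apart here. The antisense transcript AC107021.1, up by 1.28, overlaps the HIF target PLOD2 (0.65, adjusted p = 0.12) on the other strand, and no source used here says whether counting used strand.

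**Figure D5:**
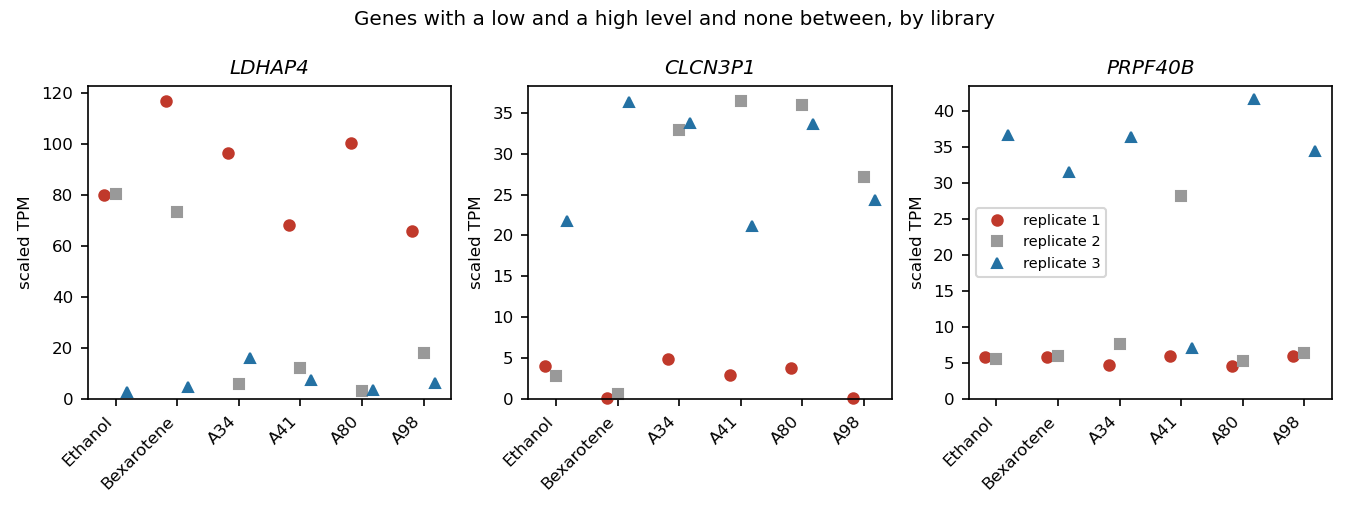
Scaled TPM (y axis) of LDHAP4, CLCN3P1 and PRPF40B in each treatment (x axis), with 1 point per library and replicates marked as in the plot of oxygen-responsive genes. LDHAP4 is at 65.7 or more in 8 libraries and at 18.1 or less in 10, and CLCN3P1 is low in the same 8.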

How the data were processed

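RNA of U87 cells was depleted of ribosomal RNA and sequenced as paired reads, per the labels' protocols. The submitters' processing notes name STAR, StringTie, MultiQC and build GRCh38, with versions, annotation and strand handling not given in the sources used here. There was 1 table per library. TPM was computed by the authors, per the file headers, and FPKM stood beside it in the deposited tables. The deposited coverage, a signal in reads per base, divided by FPKM gave the depth, read from the plateau on which 17.5% to 20.8% of genes lie. The number in the table's name was 4 for all replicate 3 libraries and 1 for replicate 1, except 2 for A98; groups follow the titles.

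Read counts are not among the columns, and count models were not fitted. After summing TPM over each gene ID (60675 IDs, 58444 of them in GENCODE release 29), values were scaled by the median of ratios, with factors of 0.419 to 1.21, over 16349 genes above 0 in all 18 libraries. A gene was tested where 3 or more of the 18 libraries reached 1 TPM. Log2(scaled TPM + 1), which understates the change of low genes, was modelled on treatment and replicate number in limma 3.58.1 (R 4.3.3) (12 libraries, 5 residual and 3.45 prior degrees of freedom, trend on mean level). Adjusted p-values of genes are limma's two-sided values after the Benjamini-Hochberg procedure over every gene tested. Library measures were tested by exchanging the libraries of each treatment in all 64 ways. 0 pairs of libraries held identical values. The fits were tested on simulated data.

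The members and lists were chosen with earlier results of these data known. Genes were named by a rule: the 12 largest increases and decreases among calls of one sign in all pairs (mean at least 2 scaled TPM, span at least 300 bases, no clone name), up to 4 called members of smallest p per list, and 37 set genes. Those named after their values were seen are GYS1, ALDOC, PFKFB3, PFKFB4, HK2, CXCL8, F3, EGLN3, EPAS1, TNFAIP2, COL6A3, MMP1, NAMPT, CLCN3, PLOD2, FAM20C, HK1, PFKM, PKM, DQX1 and the remaining calls outside the rule. Lists are described by counts and medians, with no test. Some results that belong to these lists are not reported here.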

Additional observations from a re-analysis of the deposited data

Results flagged for a closer look

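The 6 pair differences of 81 items, the 41 called genes and 40 lists, were screened for a single pair far from the rest by Dixon's criterion (0.625 for 6 values), which chance alone meets in about 1 in 20 groups, and 6 were found. For PRPF40B the A41 pair differed by -0.1964 and the others by -2.95 to -2.24. For DDIT4 the ethanol pair differed by 0.1533 and the rexinoid pairs by 0.75 to 1.06. For COL15A1 the A34 pair differed by 0.9435 and the others by 0.53 to 0.64. The extracellular matrix list had a median of 0.5534 in A34 and 0.07 to 0.19 elsewhere. The mitochondrially encoded genes had a median of 1.4026 in A80 and -0.11 to 0.31 elsewhere. The nuclear-encoded genes of oxidative phosphorylation had a median of -0.1853 in A34 and -0.01 to 0.08 elsewhere.

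The ethanol pair and the rexinoid pairs differed for DQX1, which encodes a DEAQ-box ATPase, by 9.995 on the log2 scale (limma interaction, adjusted p = 1.379e-07). It was listed at 0 in ethanol replicates 1 and 2 and at 1248 scaled TPM in ethanol replicate 3. A41 replicate 2 read 0.436, and the other 14 libraries read 852 to 1404. No library lay between these levels, and the ethanol side of the contrast rests on 1 pair.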

How the results depend on the processing

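The 36 higher and 5 lower genes became 48 and 36 on TPM as deposited, 0 and 0 without the level filter, 0 and 0 without the trend, 7 and 3 without the treatment block and 15 and 0 with a pseudocount of 0.1. They became 2 and 1 without ribosomal and mitochondrial RNA, 1 and 1 without the bexarotene and A98 pairs, and 834 and 674 when sign alone in 6 of 6 pairs was asked for. A pseudocount of 0.5 gave the same 41 genes, and a filter of 1 TPM in 6 of the 12 libraries kept all 41. Among alternatives chosen after seeing the data, array weights gave 7 and 1, and a threshold of 0.10 gave 146 and 22. Where limma called 0 genes, 3563 (no filter), 2218 (no trend) and 1804 (without A80) had an unadjusted p under 0.05. Leaving out 1 pair gave 0 to 57 higher and 0 to 3 lower genes.

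A replicate block over 18 libraries, with replicate 2 included, called 304 higher and 60 lower genes and 40 of the 41. The labels do not pair the libraries by number, and only some same-numbered libraries deviated together: 5 of 15 pairs numbered 1, 1 of 15 numbered 2 and 5 of 15 numbered 3 had deviations correlated above 0.1, and for 9 of 18 libraries the best-correlated library of another treatment had the same number.

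The 9 genes of the treatment F test became 230 on TPM as deposited, 30 without the filter, 1 without the trend, 5 without ribosomal and mitochondrial RNA, and 1 to 8 with 1 pair left out. The 1 interaction gene became 82 on TPM as deposited, 319 without the filter, 4 without the bexarotene and A98 pairs, and 1 to 4 with 1 pair left out. The mean difference in genes at 1 scaled TPM, 341 in all pairs, was 316 (315.8) without bexarotene, where 5 pairs cannot give an exact p below 0.0625. The cause of these shifts was not tested. The direction of all 41 genes held in the 17 alternatives that refit it, with the difference 0.503 to 1.53 times its reported size. For most alternatives this outcome was fixed in advance. Each gene had 1 sign in 6 of 6 pairs, so leaving out pairs could not turn it. Changes of filter, trend or block left the difference itself the same. Depth of 1.31 to 3.89 gigabases and the lack of read counts limit what can be said of low genes.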
